A study of Mus musculus with 2 samples.

Results

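The genes described here are those of cholesterol synthesis, of the sensing of sterols through the transcription factor SREBP2, and of sterol uptake and intracellular transport, in livers of mice that received an adenovirus carrying PDK4 or the empty virus. They are the genes of a list of 31 symbols, drawn up with earlier results of these data known, that own at least 1 probe set (a set of short probes against the same transcript) with a single gene symbol in the platform annotation. Of the 31, 28 were found among 18193 named genes, with 63 probe sets, and 3 (Acat2, Soat1 and Soat2) are not analysed here. The sources used here state neither the sex of the mice nor the promoter that drives PDK4 in the vector.

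All animals were C57BL/6J mice, 2 months old, and all carried adenovirus. The Ad-control group had the empty vector and the Ad-PDK4 group the vector that overexpresses PDK4 (pyruvate dehydrogenase kinase 4, a mitochondrial enzyme that switches off the pyruvate dehydrogenase complex), each as 1000000000 PFU (plaque-forming units) per mouse into the tail vein, and liver RNA was prepared 3 days later. RNA from 4 Ad-control livers and 3 Ad-PDK4 livers was pooled, and each pool was read on 1 Affymetrix array, so there is 1 measurement per group, no spread between mice, and no test or p-value for any difference. No group without virus is part of the comparison. With only 2 arrays, their number limits the precision of every value.

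Cells make cholesterol from acetyl-CoA in the endoplasmic reticulum, first through the mevalonate pathway to farnesyl pyrophosphate and then through squalene and lanosterol. When membrane sterol falls, the escort protein SCAP carries SREBP2 to the Golgi, where it is cut, and its released part switches on the synthesis genes. When sterol is plentiful, the INSIG proteins hold SCAP and SREBP2 back. The liver is a main site of this pathway, where it supplies lipoproteins and bile acids.

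A log2 difference below is the log2 signal on the Ad-PDK4 array minus that on the Ad-control array, centred on the median probe set measured on both arrays. Each gene takes the value of its brightest probe set, by mean log2 signal. It counts as measured where its signal reaches the floor, set for each array at its own 50th percentile (93.4 for Ad-control, 99.9 for Ad-PDK4). Signals of different probe sets are not comparable as transcript levels, so each gene is compared only with itself. The only available error scale is how far probe sets against the same gene differ, a pooled SD of 0.35 over 4326 genes and of 0.22 over the 13 pathway genes with several measured probe sets. It holds neither errors common to all probe sets of a gene nor differences between mice. In RNA from whole liver, fewer cells of a type and less RNA per cell cannot be told apart.

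The vector's gene and the cell content of the pools were looked at first. The single Pdk4 probe set read 234 in the Ad-control pool and 177 in the Ad-PDK4 pool, which is -0.39 on the log2 scale, so overexpression of PDK4 is not seen at this probe set. Whether it can read the vector's transcript is not stated, and the pools are called by their labels throughout. All 9 matched hepatocyte markers were measured and lay within 1.5-fold, with signals of at least 15650 and 13672. The 9 matched exocrine pancreas markers were all at least 1.5-fold higher in the Ad-PDK4 pool (median log2 difference 3.25, summed signal 9935 against 79251), as were the 7 matched markers of dividing cells (median 3.89, summed signal 1464 against 18085). Of 5 skeletal muscle markers 4 were at least 1.5-fold lower, with a summed signal of 3124 against 1694. Macrophage and Kupffer cell markers summed to 7972 and 7575. For the adrenal cortex, which also makes sterols, the list summed to 362 and 454, and 3 of its 5 genes were under the floor on both arrays. None of these lists has a marker at a signal of 0. The part of any of them in the differences below was not tested.

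The pathway as a whole lay close to the median gene. All 28 genes were measured on at least 1 array, 27 of them on both. Of the 28, 1 (Hmgcs1) was at least 1.5-fold higher in the Ad-PDK4 pool, 2 (Insig1 and Mylip) were at least 1.5-fold lower, 24 lay within 1.5-fold, and 1 (Npc1l1) has only a lower bound. Among all 12121 measured genes, 11.0% were 1.5-fold higher and 5.58% were 1.5-fold lower, and read against these shares neither count is a result about the pathway. The median of the pathway genes was a log2 difference of -0.11, with 10 genes above 0 and 18 below, beside a median of 0.022 over all measured genes. The plot of every pathway gene's signals shows most pairs of points nearly on top of each other.

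**Figure D1:**
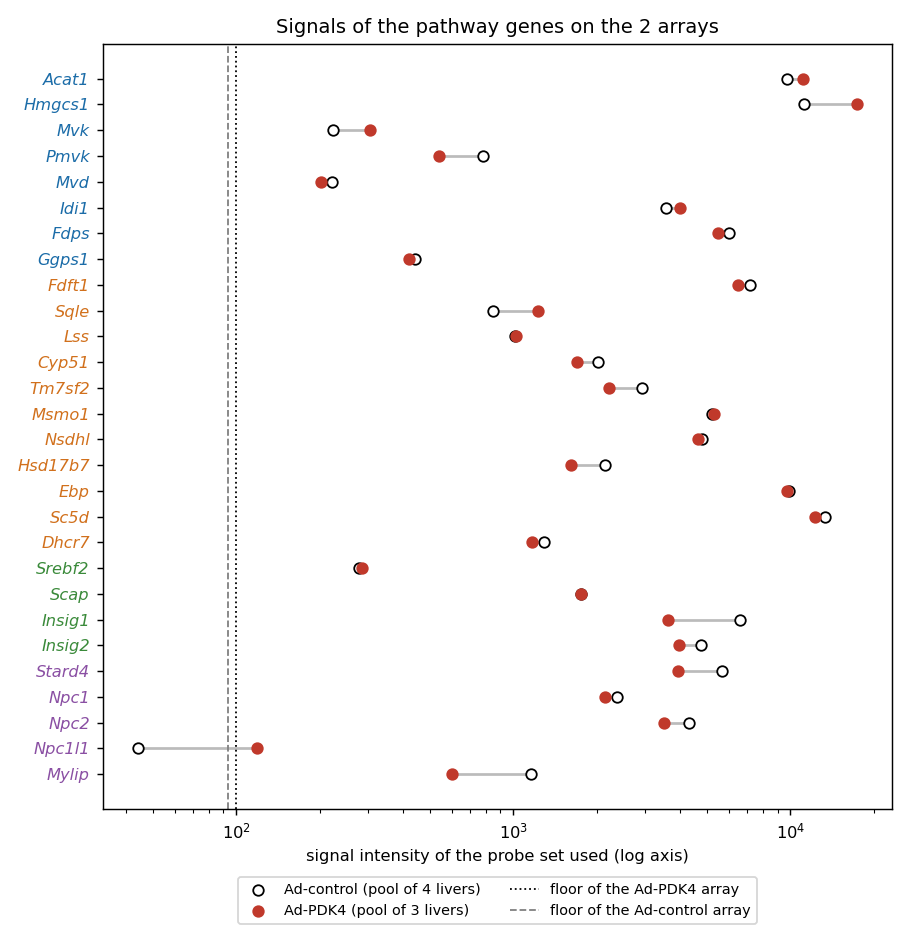
Signal intensity (log axis) of each pathway gene on the Ad-control array (open circles) and the Ad-PDK4 array (filled circles), ordered along the pathway, with gene names coloured by role (blue early synthesis, orange late synthesis, green sterol sensing, purple uptake and transport). The widest gaps among genes above both floors are those of Mylip, Insig1 and Hmgcs1, and only the Ad-control signal of Npc1l1 lies under its floor.

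Most of these genes are bright, where the arrays scatter less. Of the 27 genes measured on both arrays, 19 fall among the 3463 genes with the highest mean signal (1206 or more), 5 in the middle range and 3 in the lowest (under 380). Of those 3463, 3.52% passed 1.5-fold upward and 2.89% downward, and the SD of the log2 difference was 0.37. Of the 19 pathway genes there, 1 was higher (Hmgcs1) and 1 lower (Insig1). The SD was 0.46 over the middle genes and 0.54 over the dimmest. Over the 27 pathway genes it was 0.36.

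**Figure D2:**
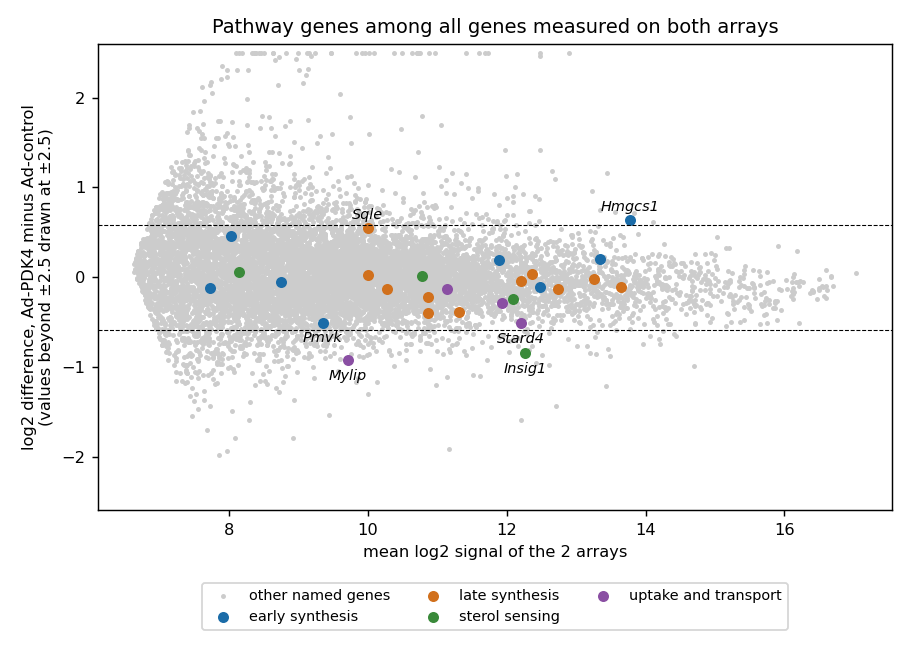
Log2 difference (Ad-PDK4 minus Ad-control) against mean log2 signal for all 10389 genes measured on both arrays (grey) and the 27 pathway genes among them (coloured by role), with dashed lines at 1.5-fold. Hmgcs1 at 0.64, Insig1 at -0.85 and Mylip at -0.92 lie outside the lines, and the other pathway genes lie inside the grey cloud between them.

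Early synthesis runs from acetyl-CoA to the isoprenoid pyrophosphates. Of its 8 measured genes 1 was at least 1.5-fold higher (11.0% of all genes were) and 0 were lower (5.58% of all genes). On each side of 0 lay 4 genes, with a median log2 difference of 0.070. Hmgcs1, the cytosolic HMG-CoA synthase and a classical SREBP2 target, read 11260 in the Ad-control pool and 17355 in the Ad-PDK4 pool. That is 1.56-fold higher (0.64 on the log2 scale), and the 4 probe sets measured on both arrays ranged from 0.42 to 0.67, all on the higher side. Of the 10389 genes measured on both arrays, 822 (7.91%) were as high or higher.

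The promoter of Hmgcs1 is shown because this gene has the highest difference of the pathway among genes measured on both arrays. It also has the only match to the searched sterol element among the 24 listed genes with a promoter window. Sqle and Stard4 have no window and were not searched. Whether the match bears on the difference was not tested. The Hmgcs1 promoter is the RefSeq window from 250 bases before to 50 bases after the start, at chr13:119690101-119690400 (GRCm38.p6, plus strand), 5′ to 3′. In it, 4 motifs are in capitals wherever they occur on either strand. These are TCACNCCAC, a core of the sterol regulatory element bound by SREBP, then CCAAT, the box of the SREBP partner NF-Y, then GGGCGG, the box of Sp1, and last CACGTG, the E-box, and none of the printed matches overlaps another.
Hmgcs1: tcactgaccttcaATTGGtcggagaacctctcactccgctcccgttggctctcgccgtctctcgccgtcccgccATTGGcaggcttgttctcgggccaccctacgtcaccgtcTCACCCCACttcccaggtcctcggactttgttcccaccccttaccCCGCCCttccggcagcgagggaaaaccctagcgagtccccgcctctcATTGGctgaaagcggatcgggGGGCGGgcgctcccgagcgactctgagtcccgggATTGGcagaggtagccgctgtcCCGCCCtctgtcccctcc
The window holds 1 sterol element core, TCACCCCAC, starting 137 bases before the start site, 4 NF-Y boxes and 3 Sp1 boxes, and 0 E-boxes. In all 32851 promoter windows of the table, 1.24% hold the sterol element core. A match is a string of letters, not a shown binding site.

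Acat1, a mitochondrial thiolase known mainly from ketone body and isoleucine metabolism, read 9758 in the Ad-control pool and 11088 in the Ad-PDK4 pool, a log2 difference of 0.20. Pairs of signals below are given in this order. Its other probe sets gave 0.50 and 0.52, so all 3 were on the higher side. Mvk, mevalonate kinase, read 224 and 305, a difference of 0.46 at low signal. Its second probe set read 56.6, under the floor, and 195, a log2 difference of at least 1.08. Pmvk, phosphomevalonate kinase, which takes the next step, read 778 and 542, a difference of -0.51 from its single probe set. By their brightest probe sets these neighbouring kinases lay on opposite sides of 0, each within 1.5-fold, but the second probe set of Mvk is past 1.5-fold and leaves its size unsettled.

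Mvd, the decarboxylase that makes isopentenyl pyrophosphate, read 222 and 202, a log2 difference of -0.13, while its other probe set gave 0.27. Idi1, the isomerase of that product, read 3558 and 4016, with 0.19 and 0.15 from its 2 probe sets. Fdps, farnesyl pyrophosphate synthase, read 5988 and 5486, a difference of -0.11. Ggps1, which extends the chain to geranylgeranyl pyrophosphate, read 441 and 422, and its 4 probe sets spread from -0.31 to 0.36. For Mvd and Ggps1 the probe sets lay on both sides of 0, and no direction is given.

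Late synthesis, from squalene to cholesterol, had 11 measured genes. By their brightest probe sets 0 were at least 1.5-fold higher (11.0% of all genes were) and 0 were lower (5.58% of all genes). Their median log2 difference was -0.11, beside 0.022 over all measured genes. Of the 11, 3 lay above 0 and 8 below. Sqle, squalene epoxidase, an oxygen-requiring and tightly regulated step, stood apart at the top. Its single probe set read 847 and 1227, a difference of 0.55 (1.46-fold), just inside 1.5-fold. By brightest probe sets the next highest late gene was Msmo1 at 0.038. Without the probe sets that can match other transcripts (_x_at and _s_at), Fdft1 stood at 0.24 and Hsd17b7 at 0.15. The early median exceeded the late median by 0.18, a difference that was not tested. This gap rests largely on Acat1. Without that gene the early median is the -0.049 of Ggps1, beside the late median of -0.11. The probe sets of Ggps1 spread from -0.31 to 0.36, wider than what is then left of the gap.

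The enzymes on both sides of squalene epoxidase did not share its value. Fdft1, squalene synthase, which makes the substrate of Sqle, read 7166 and 6498 at its brightest probe set, a log2 difference of -0.13, but its other measured probe set read 3513 and 4110, a difference of 0.24. The brightest one is of the _x_at kind, which can match other transcripts, and without it the value of Fdft1 is 0.24. Lss, lanosterol synthase, which closes the rings, read 1017 and 1025 at a probe set of the _s_at kind, a difference of 0.027. Its other measured probe set read 958 and 627, a difference of -0.60, which is past 1.5-fold. So the arrays do not settle Lss, and with that probe set it would be counted lower.

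After lanosterol all values lay within 1.5-fold. Cyp51, lanosterol demethylase, read 2016 and 1706, a difference of -0.23, and its 3 probe sets (-0.23 to -0.039) were all on the lower side. Tm7sf2, a sterol reductase, read 2922 and 2210, a difference of -0.39. Msmo1, the methylsterol monooxygenase, read 5238 and 5323, and Nsdhl, the dehydrogenase that works with it, read 4802 and 4632, differences of 0.038 and -0.037. Hsd17b7, the ketoreductase of the same demethylation, read 2146 and 1611 at an _x_at probe set, a difference of -0.40, while its others gave 0.15 and 0.38. With the median over its probe sets, or without the _x_at one, Hsd17b7 stood at 0.15, so its direction is not settled.

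The last steps had small values. Ebp, the sterol isomerase, read 9937 and 9727, a log2 difference of -0.016. Sc5d, the sterol desaturase, read 13405 and 12261, a difference of -0.11, with other probe sets at -0.26 and 0.13. Dhcr7, the reductase that completes cholesterol, read 1293 and 1172, a difference of -0.13. All 3 differences were smaller than the probe set SD of 0.35.

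**Figure D3:**
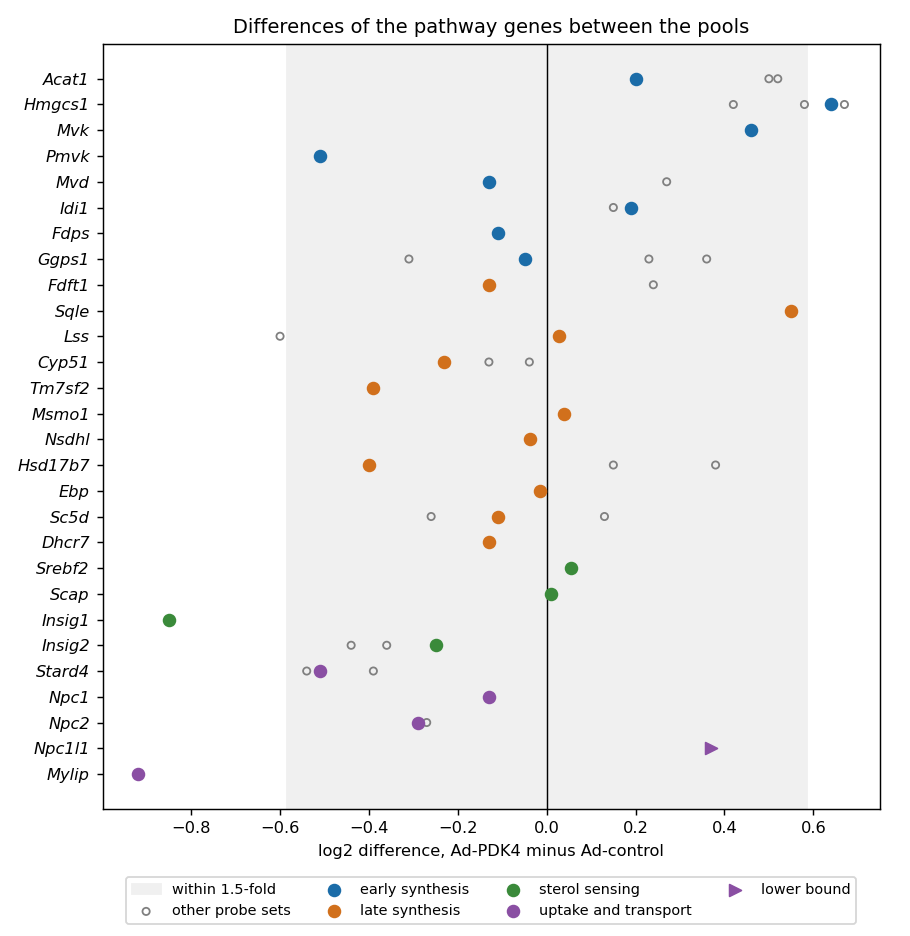
Log2 difference (Ad-PDK4 minus Ad-control) of the 28 pathway genes in pathway order, with the probe set used as a large coloured point, other probe sets measured on both arrays as small open circles, and the range within 1.5-fold shaded. The bound of Npc1l1 is an arrowhead. Hmgcs1 lies right of the shading, Insig1 and Mylip left of it, and the open circles of Lss, Hsd17b7 and Fdft1 lie across 0 from their large point or far from it.

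Probe sets of the same pathway gene often disagreed. Of 13 pathway genes with more than 1 probe set measured on both arrays, all probe sets lay on the same side of 0 in 7 (Acat1, Hmgcs1, Idi1, Cyp51, Insig2, Stard4 and Npc2) and on both sides in 6 (Mvd, Ggps1, Fdft1, Lss, Hsd17b7 and Sc5d). Over all 4326 genes with several measured probe sets, 49.4% had them on the same side. Insig1, Mylip, Sqle and Pmvk rest on 1 probe set each, so their values have no such check.

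Of the 4 sterol sensing genes, 1 was at least 1.5-fold lower (5.58% of all genes were) and 0 were higher (11.0% of all genes). The other 3 lay within 1.5-fold, and the median was -0.12. Srebf2, the gene of SREBP2, read 277 and 285, a log2 difference of 0.055, and Scap, the gene of its escort, 1760 and 1753, a difference of 0.0091. Both lay nearly at the array median, and SREBP2 is regulated mainly by cleavage, which transcript levels do not show. Insig1, whose protein retains SCAP in the endoplasmic reticulum and which is itself switched on by SREBP, read 6610 and 3633. That is 1.80-fold lower in the Ad-PDK4 pool, a log2 difference of -0.85, and 162 of 10389 genes (1.56%) were as low or lower. Insig2, which does the same work but is not induced by SREBP, read 4782 and 3984, a difference of -0.25, and its other probe sets gave -0.44 and -0.36. Both INSIG genes were on the lower side, Insig1 past 1.5-fold and Insig2 within it.

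The promoter windows of the Insig genes are shown because these paralogs do the same work and differ in the size of their log2 difference. Insig1 lies at chr5:28071162-28071461 on the plus strand, and the window of Insig2, the most upstream of its 3 starts in the table, at chr1:121332540-121332839 on the minus strand (RefSeq, GRCm38.p6). Capitals mark the same 4 motifs on either strand, read 5′ to 3′.
Insig1: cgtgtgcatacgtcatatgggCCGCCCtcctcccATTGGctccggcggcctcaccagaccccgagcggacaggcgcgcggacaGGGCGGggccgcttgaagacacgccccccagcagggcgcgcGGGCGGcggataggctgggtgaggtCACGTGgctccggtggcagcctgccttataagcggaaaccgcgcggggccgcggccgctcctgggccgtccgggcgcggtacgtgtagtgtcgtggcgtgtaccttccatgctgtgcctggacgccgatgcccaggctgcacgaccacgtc
Insig2: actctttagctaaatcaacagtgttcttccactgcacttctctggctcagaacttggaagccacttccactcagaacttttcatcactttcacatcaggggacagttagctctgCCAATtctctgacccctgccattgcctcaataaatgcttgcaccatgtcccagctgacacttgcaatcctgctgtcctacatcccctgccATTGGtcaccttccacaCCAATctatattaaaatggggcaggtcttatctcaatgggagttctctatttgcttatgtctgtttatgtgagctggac
Insig1 has 1 NF-Y box, 3 Sp1 boxes and 1 E-box starting 101 bases before the start site. The Insig2 window has 3 NF-Y boxes, at 136, 46 and 29 bases before the start, and 0 Sp1 boxes. The other windows of Insig2 in the table hold 0 NF-Y boxes and 1 Sp1 box each. Neither window has the sterol element core in the searched letters, which says only that this string is not within these 300 bases.

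Genes of uptake and transport were mostly on the lower side. Of 5 genes with a probe set, 4 were below 0, 1 of them at least 1.5-fold lower (5.58% of all genes were). Counted as at least 1.5-fold higher were 0 (11.0% of all genes). The median was a log2 difference of -0.29, beside 0.022 over all measured genes. The list also holds Mylip, whose product acts against lipoprotein receptors, so the median does not describe uptake itself. Mylip, also called IDOL, encodes a ubiquitin ligase that sends lipoprotein receptors for breakdown and is switched on by the oxysterol receptor LXR. Its single probe set read 1158 and 604, 1.90-fold lower in the Ad-PDK4 pool, a log2 difference of -0.92. It was the lowest of all 28 genes, and 105 of 10389 genes (1.01%) were as low or lower.

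Its promoter, at chr13:45389492-45389791 on the plus strand (RefSeq, GRCm38.p6), is shown as that of the pathway's lowest gene, with the same motifs in capitals.
Mylip: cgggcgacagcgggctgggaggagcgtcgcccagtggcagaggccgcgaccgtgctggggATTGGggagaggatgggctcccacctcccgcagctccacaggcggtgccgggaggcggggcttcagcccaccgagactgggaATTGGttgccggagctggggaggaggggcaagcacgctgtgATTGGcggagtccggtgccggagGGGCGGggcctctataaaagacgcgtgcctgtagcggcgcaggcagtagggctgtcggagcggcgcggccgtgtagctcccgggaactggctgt
The window has 3 NF-Y boxes, at 190, 108 and 67 bases before the start, and 1 Sp1 box at 44 bases before it. The sterol element core and the E-box, 0 matches each, are not in these letters.

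Stard4, a cytosolic carrier that moves cholesterol between membranes and a SREBP2 target, read 5687 and 3949, a log2 difference of -0.51, 1.43-fold lower. Its 3 probe sets gave -0.54 to -0.39, a range narrower than the probe set SD. Npc2, the lysosomal protein that binds cholesterol taken up with lipoproteins, read 4318 and 3506, a difference of -0.29, and its second bright probe set gave -0.27. Npc1, the membrane protein to which NPC2 hands that cholesterol, read 2365 and 2143, a difference of -0.13. Npc1l1, the sterol uptake protein of the intestine, was under the floor on the Ad-control array (44.4) and read 119 on the Ad-PDK4 array, which gives at least 1.29-fold higher. Its call depends on the floor: with the floor at the 30th percentile it was measured on both arrays at a log2 difference of 1.43. The small intestine list had 6 genes with a probe set, of which 3 were under the floor on both arrays and 3 within 1.5-fold, and its summed signal was 11928 and 15917. Its part in the value of Npc1l1 was not tested.

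Classical SREBP2 targets stood on both sides. Hmgcs1 and Sqle, at 0.64 and 0.55, were the highest genes measured on both arrays, while Insig1 and Stard4, at -0.85 and -0.51, were among the 4 lowest, with Mylip and Pmvk. Idi1 (0.19), Fdps (-0.11), Cyp51 (-0.23) and Dhcr7 (-0.13), further targets, lay between them. These are differences from 2 arrays, and none was tested.

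Most promoter windows of the listed genes held the NF-Y box, and most held the Sp1 box. Of the 31 listed genes, 24 have a window in the RefSeq table, with 30 windows in all. The other 7 (Acat1, Fdps, Fdft1, Sqle, Stard4, Npc1 and Soat2) have none and were not searched. The NF-Y box was in 22 of the 30 (73.3%), against 37.4% of all 32851 windows. By gene it was in 22 of the 24 (91.7%), against 41.1% of all genes with a window. The Sp1 box was in 24 of the 30 (80.0%), against 35.7% of all windows. The E-box was in 6 of the 30 (20.0%), against 7.15%, and in 5 of the 24 genes (20.8%), against 8.09% of all genes. The sterol element core was in 1 of the 30 (3.33%), against 1.24% of all windows, a share that rests on a single match. Only 1 string of letters was searched, so other forms of the element were not looked for. Windows of the same gene are not independent, and those of Scap overlap and hold the same E-box. For the synthesis genes alone, 15 of 19 windows (78.9%) held an NF-Y box and 10 (52.6%) held 2 or more. Of all windows, 11.7% held 2 or more. The 15 measured synthesis genes with an NF-Y box had log2 differences from -0.51 to 0.64 with a median of -0.049. Of the measured synthesis genes with a window, 0 lack the box, so there is no group to compare them with.

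Related lists were set beside the pathway. The machinery that processes or partners SREBP had 10 measured genes, with a median of -0.036. Of these, 0 were at least 1.5-fold higher (11.0% of all genes were) and 0 were lower (5.58% of all genes). Nfyc (0.44) and Nfyb (-0.56), both subunits of NF-Y, were at opposite ends, although the second probe set of Nfyb gave 0.13. Nfya stood at -0.31, and Mbtps1, the first SREBP protease, read 1314 and 1605, a difference of 0.30, with -0.16 at its other probe set. Hence the genes that cut SREBP or bind DNA with it showed no common direction.

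Of 5 measured further SREBP2 target genes, 1 was at least 1.5-fold lower (5.58% of all genes were) and 4 lay within 1.5-fold. Their median was -0.10. Tmem97, the sigma-2 receptor, an endoplasmic reticulum protein that binds NPC1, read 1753 and 2533, a difference of 0.55, equal to that of Sqle. Rdh11, a retinol dehydrogenase, gave 0.37, with -0.14 at its other probe set, and Aacs, acetoacetyl-CoA synthetase, gave -0.17. Mmab, a vitamin B12 enzyme, read 311 and 151, a difference of -1.03. With 50 added to each signal it stood at -0.84, and a floor raised to the 70th percentile left only a bound of -0.074.

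Fatty acid synthesis genes driven by SREBP1 were mostly on the lower side. Of 10 measured, 2 were at least 1.5-fold lower (5.58% of all genes were) and 0 were higher (11.0% of all genes). Below 0 lay 9, and the median was a log2 difference of -0.33, beside 0.022 over all measured genes. Fasn, fatty acid synthase, read 14930 and 8480, a difference of -0.80 that is close to that of Insig1. Pnpla3, a lipid hydrolase gene, read 170 and was under the floor in the Ad-PDK4 pool (93.7), a log2 difference of -0.75 or lower. Elovl6, a fatty acid elongase, gave -0.50, with its 3 probe sets from -1.73 to -0.50. Gpam, the first acyltransferase of triglyceride synthesis, gave -0.070, with -0.59 at its other probe set. Me1, malic enzyme, gave 0.21, with 0.35 at its other probe set. The difference between this list and the sterol synthesis genes (median -0.049 over 19 genes) was not tested.

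Of 6 measured sterol efflux and LXR genes, 0 were at least 1.5-fold higher (11.0% of all genes were) and 0 were lower (5.58% of all genes). Their median was -0.078. Abcg5 and Abcg8, the 2 subunits of the transporter that sends sterols into bile, read 5527 and 4022, and 2669 and 2017, log2 differences of -0.44 and -0.39. The partners of this transporter thus had nearly equal values. Abcg1, another sterol exporter, gave -0.013, with 0.91 at its second probe set, and Nr1h3, the gene of LXR alpha, gave 0.040. Mylip, whose transcription LXR also controls, was lower than all of them.

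The branches that use farnesyl and geranylgeranyl pyrophosphate for other products had 11 measured genes, with a median of 0.051. Of these, 0 were at least 1.5-fold higher (11.0% of all genes were) and 0 were lower (5.58% of all genes). The 10 measured on both arrays lay within 1.5-fold. The other, Fntb, a farnesyltransferase subunit, was under the floor in the Ad-control pool (40.1) and read 109, a log2 difference of at least 0.23. Icmt (-0.51) and Rce1 (0.46), successive enzymes in the processing of prenylated proteins, were the extremes, Rabggta, a subunit of the Rab prenyl transferase, gave -0.28, and Coq2, of coenzyme Q synthesis, 0.12. For intracellular transport and hydrolysis 8 of 10 genes lay within 1.5-fold and Gramd1b had only a lower bound of 0.18. The remaining 1 was at least 1.5-fold lower (5.58% of all genes were). That was Stard5, a relative of Stard4, which read 2462 and 1600, a difference of -0.61, with its 3 probe sets from -0.78 to -0.41. Osbp, an oxysterol-binding protein, gave -0.32, Lipa, the lysosomal lipase that frees cholesterol from its esters, 0.19, and Gramd1a 0.23. Both STARD carriers of the same subfamily were thus on the lower side with all 3 of their probe sets.

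The enzymes that turn cholesterol into oxysterols and bile acids had 6 measured genes, of which 2 were at least 1.5-fold higher (11.0% of all genes were), 0 were lower (5.58% of all genes) and 3 lay within 1.5-fold, with a median of 0.11. Ch25h, an oxysterol-making hydroxylase, was under the floor in the Ad-PDK4 pool and barely above it in the other (97.2), so it has no direction. Cyp8b1 and Cyp7b1, hydroxylases of bile acid synthesis, gave 0.78 and 0.73, with 0.48 at the other probe set of Cyp7b1. Hsd3b7 and Cyp27a1, further enzymes of that route, gave -0.033 and -0.32.

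**Figure D4:**
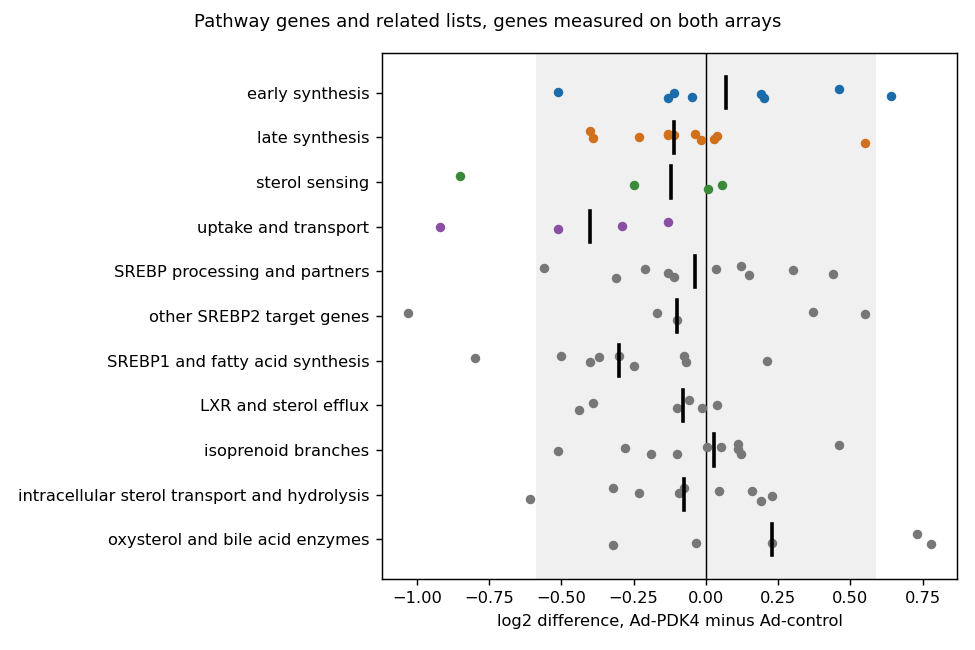
Log2 difference (Ad-PDK4 minus Ad-control) of each gene measured on both arrays, 1 point per gene, for the 4 roles of the sterol pathway (coloured) and 7 related lists (grey), with the median as a black bar and the range within 1.5-fold shaded; vertical jitter has no meaning. The medians of genes measured on both arrays run from -0.40 for uptake and transport to 0.23 for oxysterol and bile acid enzymes, and the points of every list but 1 reach both sides of 0.

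The measurements share some limits. The 3′ to 5′ signal ratios, which reflect how intact the RNA was, came to 4.88 (Ad-control) and 5.46 (Ad-PDK4) for beta-actin, to 0.785 and 0.806 for Gapdh, and to 9.26 and 7.96 for Pcx, which ran the other way. The added poly-A control transcripts had a median log2 difference of -0.54 and the hybridization controls of -0.26, each relative to the median probe set. Set against those controls in place of the median probe set, every pathway gene moves up by the same amount, as does the median of all genes (to 0.56 and 0.28), so all directions here are relative to the other liver transcripts.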

How the data were processed

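Liver RNA of 2 pools was measured, 1 array per pool, per the labels, which state 10 ug RNA per pool and biotin-labelled cRNA. The deposited values are linear signal intensity, 1 per probe set for 45101 probe sets. The sources used here state neither how probe signals were summarised nor the software. Without the highest and lowest 2%, the mean of each array is 500.0.

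Gene names came from the platform annotation (34958 probe sets with 1 symbol, 932 with several, which were not named), and all 31 listed symbols are in the mouse RefSeq table (GRCm38.p6). Signals were log2-transformed with no pseudocount, and differences centred on the median of 20151 probe sets (a shift of -0.015). Where only 1 array reached the floor, the gene has a bound, the brighter signal against the other floor. A difference of 1.5-fold was counted. All listed genes are reported, and of each related list the 2 highest and 2 lowest measured on both arrays. Promoters were printed for the highest and lowest genes and the Insig pair.

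The members and lists were chosen with earlier results of these data known. The calculation was tested on simulated data. Python 3.11.15, pandas 2.3.3 and statsmodels 0.14.6 were used. In all, 11 alternatives were run.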

Additional observations from a re-analysis of the deposited data

How the results depend on the processing

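The 11 alternatives were a floor at the 30th or 70th percentile or none, 50 added to each signal, the median over probe sets, no _x_at or _s_at probe sets, no centring, loess or quantile normalization, and the control transcripts as reference. The difference between the early and late synthesis medians was 0.18 without centring and against either set of controls. Those alternatives shift every gene alike and cannot change it. Under the other alternatives it ran from 0.070 to 0.23. The count of genes at least 1.5-fold higher (1) became 2 under the 30th-percentile floor and 2 without a floor, when Npc1l1 joined Hmgcs1, and 4 and 7 against the hybridization and poly-A controls. The count of lower genes (2) was 0 against the poly-A controls, where Insig1 stood at -0.31 and Mylip at -0.38, and 3 without _x_at and _s_at probe sets, when Lss joined. The pathway median was -0.027 with the median over probe sets, and the late median -0.0034 after quantile normalization. Against the hybridization controls the medians were 0.14 (all), 0.33 (early), 0.14 (late), 0.14 (sensing) and -0.030 (uptake and transport). Against the poly-A controls they were 0.43, 0.61, 0.43, 0.42 and 0.26. These references add a constant to every gene, which the construction of the alternative shows. The cause of the other shifts was not tested. No called gene reversed. With the median over probe sets 5 genes changed sign (Mvd, Ggps1, Fdft1, Lss and Hsd17b7). With the floor at the 70th percentile 25 genes remained measured. No paired analysis was possible because each group is 1 array of 1 pool.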

Other observations

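Mvk and Mmab, both SREBP2 targets, are next to each other in the mouse RefSeq annotation, with 190 bases between them and no protein-coding gene in that gap. Their log2 differences were 0.46 and -1.03, from signals of 224 and 305 for Mvk and 311 and 151 for Mmab. With the floor at the 70th percentile both had only bounds, 0.13 for Mvk and -0.074 for Mmab. Both are dim genes, and each value comes from 1 probe set measured on both arrays. The pair was singled out after the values were seen, and the difference between the genes was not tested.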
